A study of Mus musculus with 12 samples.

Results

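Colonic organoids from mice labelled AhR deficient (KO) were compared with organoids from wild-type (WT) mice after 3 days in medium without Wnt-3A. The comparison used 3 KO and 3 WT libraries, and genes whose normalized count reached 10 in 3 or more of these 6 libraries were kept. By that rule 14115 of the 48795 genes in the table were tested, 12731 of them protein coding. Both genotypes had a C57BL/6 background. Crypts of both were taken from the colon with EDTA and grown in matrigel with Wnt-3A, Noggin, R-spondin-1 and EGF, and Wnt-3A was then left out for differentiation. The series holds 6 further libraries of the same genotypes kept in the medium with Wnt-3A (stem cell condition, 3 per genotype). These entered the fit for their spread and serve at the end to ask whether the effect of genotype differed between conditions. The labels give no allele, sex, age or number of mice, so the replicates may be cultures of the same animal and p-values measure the spread between these libraries. Organoids of this kind are grown from epithelium and lack the immune cells and the nerves of the gut. Below, WT 1 to WT 3 and KO 1 to KO 3 are the libraries without Wnt-3A, levels are normalized counts with their SD (n = 3), and changes are differences of log2(normalized count + 1), KO against WT, with their standard error. This scale understates the change of genes with few counts. A gene was called at a limma adjusted p under 0.05 over all genes tested.

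AhR is a ligand-activated transcription factor of the bHLH-PAS family. It waits in the cytoplasm with Hsp90 and other chaperones, enters the nucleus when it binds a plant, microbial or synthetic ligand, pairs with ARNT and turns on genes of xenobiotic metabolism, among them those of the cytochrome P450 family. In the colon, Wnt signals hold stem cells at the crypt base in division, and cells that leave this signal become absorptive colonocytes, goblet cells, enteroendocrine cells or tuft cells.

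Libraries of the comparison held between 25.1 and 78.1 M reads, and normalized totals were 56.9 to 57.7 M in WT and 52.6 to 53.7 M in KO. The first principal component of the 6 libraries carried 65.1% of the variance and separated the genotypes. KO 1 lay farthest from WT on it, at 59.9 against 27.8 and 22.3 for KO 2 and KO 3, and many of the gene levels below were most extreme in KO 1. Markers of other tissues were low. Of the fibroblast and muscle list 3 genes passed the filter, and their summed level was 105 to 142 in WT and 75.9 to 94.8 in KO. Of these Pdgfrb, a receptor of mesenchymal cells, fell (90.7 ± 8.18 in WT and 21.6 ± 10.3 in KO, log2 change -2.13 ± 0.33), and Col1a1 and Vim were not called. The 6 tested immune, blood and endothelial genes summed to 1159 to 1354 in WT and 1288 to 1892 in KO, and none of them was called. With Wnt-3A, WT stem 1 stood apart by fibroblast genes, with 13196 normalized counts of Vim against 8.08 to 356 in the other 5 stem cell libraries. It alone held the Y-linked Ddx3y (27.7) and Eif2s3y (21.2), which were at 0 in every other library of the series. A further Y-linked gene, Uty, had few counts in libraries of both genotypes. Without WT stem 1 in the fit 5680 genes were called in place of 4099. Epithelial markers such as Vil1 and Cdx2, given below, were abundant in all 6 libraries.

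The Ahr count itself was higher in the libraries labelled KO. Ahr (ENSMUSG00000019256, GRCm38 chr12:35497974-35535038, minus strand) had a normalized count of 2127, 2236 and 2260.0 in WT and 3824, 3356 and 3110.0 in KO. Every KO library was above every WT library, by a ratio of means of 1.55 (log2 change 0.63 ± 0.08, limma adjusted p = 0.000588). An exact two-sided permutation test gave p = 0.10, the smallest that 3 against 3 libraries allow. Which part of the gene these mice lack is not given in the sources used here, and a count over the whole gene cannot check a deletion within it, so KO stands below for the label. Among the other members of the receptor complex, Arnt, the partner AhR needs to bind DNA, was at 3649 ± 90.6 in WT and 3417 ± 120.1 in KO and was not called. Hsp90ab1, the constitutive Hsp90, rose (104781 ± 6357 in WT and 137290.0 ± 8831 in KO, log2 change 0.39 ± 0.09). Arnt2, a relative of Arnt, fell (129 ± 15.2 in WT and 38.3 ± 5.41 in KO, log2 change -1.73 ± 0.42).

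Among known AhR targets the largest fall was that of Cyp1b1. This enzyme, which oxidizes polycyclic hydrocarbons and steroids, had a normalized count of 574, 679.6 and 634 in WT and 20.6, 16 and 13 in KO. The groups were far apart in every library (log2 change -5.19 ± 0.23, limma adjusted p = 4.67e-07). The related Cyp1a1 and Cyp1a2 had 0 reads in all 6 libraries, which allows up to 3 reads in each. Ahrr, the AhR repressor, had 6 reads over the WT libraries and 2 over the KO libraries, and none of the 3 genes was tested.

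Of the 10 AhR target genes listed, 6 were tested, of which 4 fell and 1 rose, with a median log2 change of -1.28. Over all genes tested 29% were called, 14.4% higher and 14.7% lower in KO, and the median log2 change was 0.02. Nqo1, a quinone reductase, was at 703, 709 and 788 in WT and 227, 399 and 395 in KO (log2 change -1.15 ± 0.20, limma adjusted p = 0.00242). The lowest WT library was above the highest KO library. Ugt1a6a, which joins glucuronic acid to phenols, was at 707, 484 and 788 in WT and 56.4, 165 and 179.97 in KO (log2 change -2.43 ± 0.48, limma adjusted p = 0.00494), again without overlap. Gsta1, a glutathione transferase, fell (6182 ± 726 in WT and 2462 ± 953 in KO, log2 change -1.41 ± 0.28). Tiparp, an ADP-ribosyltransferase that restrains AhR, was lower in each KO library, at 1942, 2087 and 2181 in WT and 769, 1364 and 1309.6 in KO, and did not pass (log2 change -0.89 ± 0.40, limma adjusted p = 0.116). Aldh3a1, an aldehyde dehydrogenase singled out after its values were seen, rose (21.7 ± 6.32 in WT and 47.8 ± 10.1 in KO, log2 change 1.12 ± 0.33) but was not called without KO 1, WT 2 or WT 3, with a limma adjusted p of up to 0.1.

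**Figure D1:**
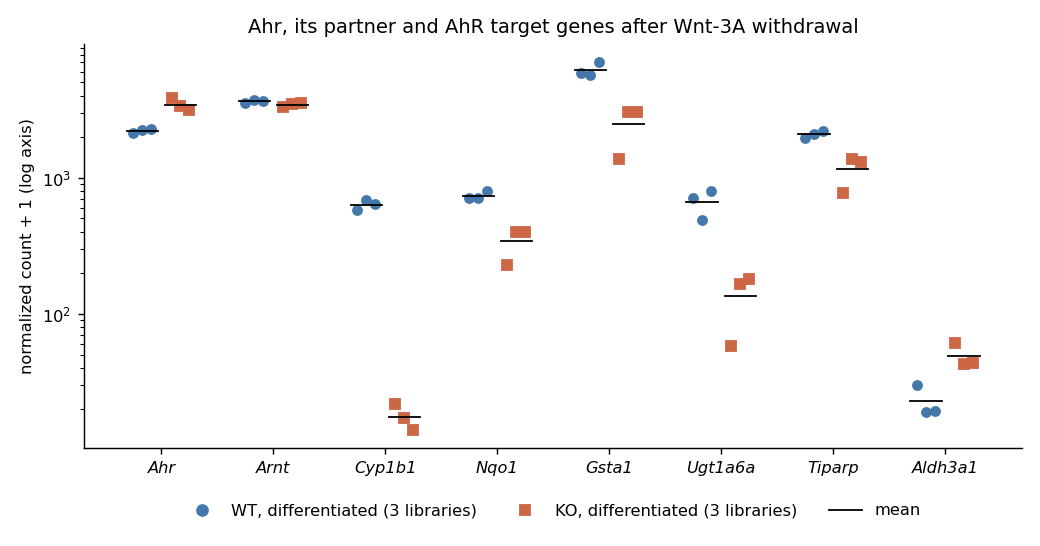
Normalized count + 1 (log axis) of Ahr, Arnt and 6 tested AhR target genes in each of the 3 WT (circles) and 3 KO (squares) differentiated libraries, with the mean of each group as a bar. Cyp1b1 falls from 629 to 16.5, Ahr is higher in every KO library, and KO 1 is the lowest library for Nqo1, Gsta1, Ugt1a6a and Tiparp.

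AhR with ARNT binds a short DNA core, GCGTG, which was searched on both strands in RefSeq promoter windows (GRCm38.p6, 250 bases before to 50 after each start) together with the longer form TNGCGTG, whose matches contain the core. Of 32851 windows, 32.4% held the core and 5.06% the longer form. Of the 10465 tested genes with a window, 55.4% held the core in at least 1 of their windows. The share was 51.4% of the 1586 genes lower in KO with a window and 56.7% of the 1551 higher ones. Among those lower by more than 2-fold it was 34.7% of 311, and among those higher by more than 2-fold 51.3% of 341. A match describes the letters of a window, not a bound site. Of the 12 largest falls 8 had a window, and 4 of these held the core, as did 5 of the 8 AhR target genes with one. Of the 12 largest rises 8 had a window as well, and 3 of these held the core. These small counts are to be read beside the 55.4% of tested genes. No core was found in the windows of the targets Nqo1 and Ugt1a6a or of Rec8, Capn11, Gpr37l1 and Hsd3b3. The 250 bases before the start are shown for the target genes Cyp1b1 and Tiparp and for Cd55b and Slc8a1, which are among the largest falls described below, all chosen because they hold the core. Each window reads 5′ to 3′ along the gene, and capitals mark the core on either strand, which begins 76, 170, 36 and 243 bases before the start, respectively.
Cyp1b1, chr17:79715062-79715311, minus strand: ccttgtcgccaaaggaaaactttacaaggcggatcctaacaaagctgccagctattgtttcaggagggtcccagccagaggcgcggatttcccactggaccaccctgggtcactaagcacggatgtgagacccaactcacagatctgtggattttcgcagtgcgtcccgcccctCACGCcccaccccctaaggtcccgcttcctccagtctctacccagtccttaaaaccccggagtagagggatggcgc
Tiparp, chr3:65528197-65528446, plus strand: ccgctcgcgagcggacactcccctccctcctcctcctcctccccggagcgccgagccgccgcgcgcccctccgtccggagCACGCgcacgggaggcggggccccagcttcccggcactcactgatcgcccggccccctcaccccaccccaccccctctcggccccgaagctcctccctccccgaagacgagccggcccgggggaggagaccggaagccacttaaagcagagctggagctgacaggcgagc
Cd55b, chr1:130423044-130423293, minus strand: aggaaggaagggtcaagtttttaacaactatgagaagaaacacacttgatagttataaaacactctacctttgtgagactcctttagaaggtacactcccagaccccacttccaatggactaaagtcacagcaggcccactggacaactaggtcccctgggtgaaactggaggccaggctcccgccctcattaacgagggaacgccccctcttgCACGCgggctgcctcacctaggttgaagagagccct
Slc8a1, chr17:81738388-81738637, minus strand: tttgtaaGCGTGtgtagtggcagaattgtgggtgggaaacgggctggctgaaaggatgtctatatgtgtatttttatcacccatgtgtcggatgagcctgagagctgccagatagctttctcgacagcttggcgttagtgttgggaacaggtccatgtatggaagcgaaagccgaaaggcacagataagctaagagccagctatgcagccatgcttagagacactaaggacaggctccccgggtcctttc

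In all, 2031 genes rose and 2068 fell at a limma adjusted p under 0.05, and 5900 had an unadjusted p under 0.05. Most changes were modest. The median size of a called change was 0.51 on the log2 scale, 889 called genes changed more than 2-fold (479 up and 410 down) and 198 more than 4-fold. The 3 KO and 3 WT values did not overlap for 4055 of the called genes, and for 7762, or 55%, of all genes tested. Of the called genes 48.5% kept their call in each of 7 fits that left out a library of the comparison or WT stem 1. The count of calls was 2452 without KO 1, 2574 without WT 1 and 2261 without WT 3. In the lists below, counts of 0 or 1 changed by up to 2 in some of these fits, which is not repeated there. Each list count is to be read beside the shares over all genes, 14.4% higher and 14.7% lower.

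**Figure D2:**
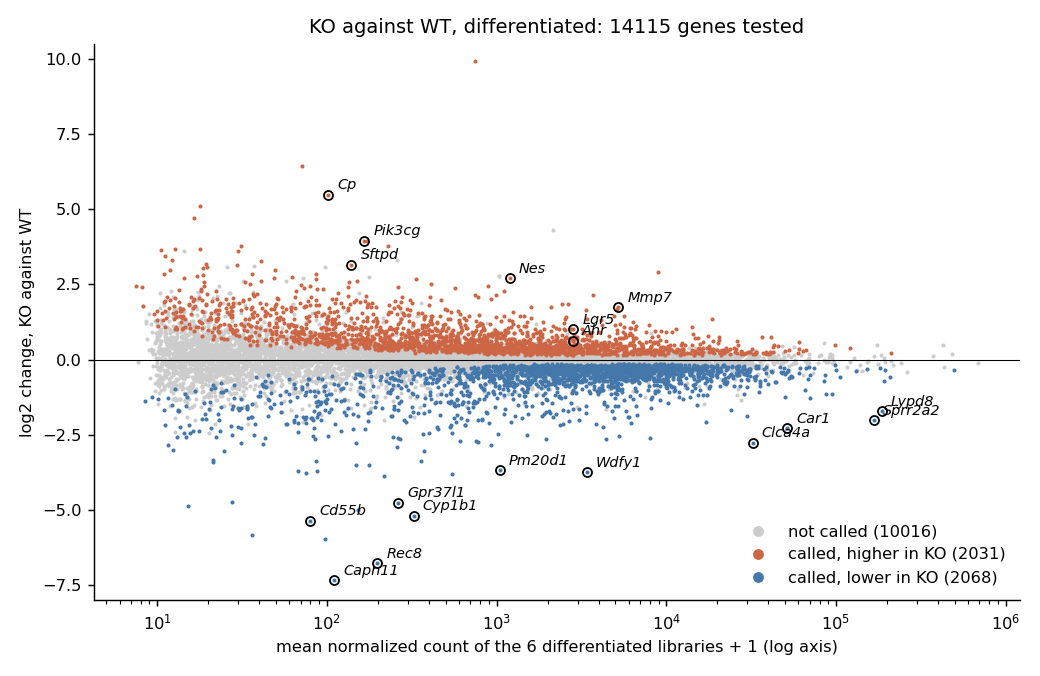
Log2 change of KO against WT after Wnt-3A withdrawal (vertical) against the mean normalized count of the 6 libraries + 1 (horizontal, log axis) for 14115 genes, with genes higher in KO in orange, lower in blue and not called in grey. Of the labelled genes Cp rises most, Capn11, Rec8, Cd55b and Cyp1b1 fall most, and Car1, Clca4a, Sprr2a2 and Lypd8 fall at high counts.

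The largest changes are those of called genes whose mean reached 50 in WT or KO and whose groups did not overlap, predicted genes and pseudogenes left aside. Some of the largest falls took genes to near 0. Capn11, a calpain protease, had 726 reads in WT and none in KO. Its normalized count was 418, 185 and 52.2 in WT and 0, 0 and 0 in KO, at least 86.9-fold lower against a floor of 3 reads per KO library, or at least 47.2-fold without WT 1. Rec8, the meiotic cohesin subunit, was at 239.5, 437 and 497 in WT and 1.52, 1.07 and 6.82 in KO (log2 change -6.77 ± 0.60, limma adjusted p = 0.000102). Cd55b, a complement regulator with a close paralog that could share reads, was at 126, 203 and 136 in WT and 2.29, 3.21 and 2.73 in KO (log2 change -5.36 ± 0.29, limma adjusted p = 2.05e-06). In each of these genes all KO libraries were at or close to 0 while the WT libraries were not. Gpr37l1, an orphan receptor, was even across replicates at 499, 509 and 504 in WT and 17.5, 13.9 and 22.5 in KO (log2 change -4.76 ± 0.47, limma adjusted p = 0.000175). Wdfy1, an endosomal adaptor of Toll-like receptor signalling, was the most highly counted of the 12 largest falls, at 6216, 6065 and 6664 in WT and 492, 427 and 484 in KO (log2 change -3.75 ± 0.14, limma adjusted p = 2.57e-07). Pm20d1, which makes N-acyl amino acids, fell (1933 ± 473 in WT and 150.1 ± 40.3 in KO, log2 change -3.69 ± 0.22). Slc8a1, the sodium-calcium exchanger, fell as well (403 ± 171 in WT and 26.6 ± 12.7 in KO, log2 change -3.86 ± 0.60). Hsd3b3, a steroid dehydrogenase (1008 ± 358 in WT and 78 ± 41.2 in KO, log2 change -3.79 ± 0.47), and Ces1d, a carboxylesterase (138 ± 55.1 in WT and 10.1 ± 7.36 in KO, log2 change -3.78 ± 0.57), did so too. The remaining pair of the 12 differed between replicates. Slc15a2, a peptide transporter, was at 264, 271 and 266 in WT and 109, 2.14 and 0.682 in KO. It was not called without KO 2, KO 3, WT 1, WT 2 or WT 3, with a limma adjusted p of up to 0.0824. Pde3a, a cyclic nucleotide phosphodiesterase, was at 144, 65.7 and 254 in WT and 1.52, 43.8 and 8.86 in KO. It was not called without KO 1, WT 1 or WT 3, with a limma adjusted p of up to 0.0882.

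The largest rises began from low WT levels. Cp, ceruloplasmin, a copper-carrying ferroxidase, was at 3.05, 1.19 and 4.54 in WT and 382, 114 and 101 in KO (log2 change 5.49 ± 0.56, limma adjusted p = 0.000208). The KO libraries were all above the WT libraries and KO 1 was the highest. Sftpd, a secreted collectin that binds microbes, was at 20.6, 25.1 and 34.1 in WT and 356, 217 and 179 in KO (log2 change 3.16 ± 0.33, limma adjusted p = 0.000221). Nes, the intermediate filament nestin, was the highest counted of the 12 rises, at 324, 293 and 291 in WT and 3080.0, 1714 and 1487 in KO (log2 change 2.71 ± 0.22, limma adjusted p = 5.26e-05). Both Prkar2b, a regulatory subunit of protein kinase A (19 ± 4.26 in WT and 324 ± 129 in KO, log2 change 3.96 ± 0.36), and Adcy3, an adenylate cyclase (6.88 ± 4.53 in WT and 72.7 ± 38.4 in KO, log2 change 3.29 ± 0.54), act in cyclic AMP signalling. Pstpip1, a cytoskeletal adaptor, rose (3.47 ± 1.13 in WT and 54.8 ± 20.2 in KO, log2 change 3.61 ± 0.37). Rgs5, a regulator of G-protein signals (9.53 ± 2.7 in WT and 87.9 ± 45.3 in KO, log2 change 2.99 ± 0.42), and Tmprss6, a membrane serine protease (18.9 ± 5.47 in WT and 152 ± 80.4 in KO, log2 change 2.84 ± 0.52), rose as well. Pik3cg, the catalytic subunit of PI3-kinase gamma, was at 24.4, 11.9 and 22.7 in WT and 376, 284 and 272 in KO (log2 change 3.96 ± 0.40, limma adjusted p = 0.000183). Tceal8 (18 ± 15.6 in WT and 105 ± 31.9 in KO, log2 change 2.75 ± 0.50) and Pcdhga11, a protocadherin (6.99 ± 2.51 in WT and 63.9 ± 36.5 in KO, log2 change 2.84 ± 0.65), were also called in each of the 7 fits.

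Some of these genes are neighbours of Ahr. Pik3cg and Prkar2b lie on chromosome 12 at 3.33 and 3.51 Mb from it, and Slc26a3, described below, at 4.08 Mb. Within 5 Mb of Ahr 12 of 34 tested genes were called (35.3%) and 14.7% were called and changed more than 2-fold, against 31.1% and 6.34% of the 363 genes on chromosome 12 more than 20 Mb away. In the stretches between, 5 of 15 genes were called (33.3%) and 20% passed 2-fold at 5 to 10 Mb, as did 29 of 69 (42%) and 13% at 10 to 20 Mb. The allele and the strain it was made in are not given in the sources used here. For genes in this stretch, sequence linked to the allele and loss of AhR cannot be told apart. Most of the largest changes lie elsewhere, and for them other differences between the KO and WT mice, whose number is not given, were not tested.

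The clearest group change was in the surface colonocyte genes. Of 31 tested members 23 fell and none rose, with a median log2 change of -1.65, beside 14.7% lower and a median of 0.02 over all genes. Car1, a carbonic anhydrase of colonocytes, had a normalized count of 90678, 60548 and 102119 in WT and 9858, 17097 and 28609 in KO (log2 change -2.29 ± 0.45, limma adjusted p = 0.00491). Clca4a, a secreted metalloprotease of the surface epithelium, was at 57168, 53098 and 56259.6 in WT and 4227, 11378 and 11235 in KO (log2 change -2.77 ± 0.35, limma adjusted p = 0.000619). No KO library came near a WT library in either gene, and KO 1 was the lowest. Fabp2, which carries fatty acids in enterocytes, fell (659 ± 182 in WT and 82.6 ± 32.9 in KO, log2 change -3.03 ± 0.38), as did Car4, a membrane carbonic anhydrase (37.8 ± 24.4 in WT and 2.59 ± 1.76 in KO, log2 change -3.40 ± 0.67), and Krt20, the keratin of terminally differentiated cells (27100.0 ± 4119.6 in WT and 7100.3 ± 3337 in KO, log2 change -2.07 ± 0.44). Aqp8, a water channel of the colon surface, was at 225, 115 and 447 in WT and 4.57, 81.3 and 17 in KO (log2 change -3.49 ± 0.84, limma adjusted p = 0.0113). It was not called without WT 3, with a limma adjusted p of up to 0.0543. Slc26a3, the chloride-bicarbonate exchanger, was at 1178, 776 and 1863 in WT and 54.9, 329 and 343 in KO (log2 change -2.69 ± 0.66, limma adjusted p = 0.012). It was not called without WT 3, with a limma adjusted p of up to 0.0558. In bulk libraries such as these, fewer cells of a type and less RNA per cell cannot be told apart.

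The mean log2 level of the 31 surface colonocyte genes, set to 0 at the WT mean, was -2.23, -1.33 and -1.19 in KO 1, KO 2 and KO 3, and 0.08, -0.35 and 0.27 in the WT libraries. With Wnt-3A the same mean was -4.32, -4.18 and -3.96 in WT and -5.34, -5.27 and -5.21 in KO. The KO organoids without Wnt-3A were above either stem cell group and below all WT libraries of their own condition.

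Brush border genes, which build and equip the microvilli, were lower in 14 of 18 and higher in none (median -0.80). The count was 9 without KO 1 or WT 1 and 8 without WT 3. Examples were Myo1a, the myosin of the microvillus (22072 ± 3258 in WT and 8298 ± 3436 in KO, log2 change -1.5 ± 0.28), and Mep1b, a meprin protease (6869.8 ± 1149 in WT and 1622 ± 829 in KO, log2 change -2.24 ± 0.40). Of the 12 pan-epithelial genes 7 fell and none rose (median -0.35, with 4 without WT 1 or WT 2). Among them were Vil1, villin (69454 ± 3214 in WT and 50958 ± 3310.1 in KO, log2 change -0.45 ± 0.08), and Lgals4, a lectin of the apical membrane (249933 ± 8145 in WT and 168168 ± 30643 in KO, log2 change -0.59 ± 0.12). The sum of the 12 genes was 1845400.0 to 1980000.0 in WT and 1530900.0 to 1620600.0 in KO.

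Ion and water transport genes moved in both directions, with 9 lower and 4 higher of 23 (median -0.26). The falls numbered 5 without KO 1, WT 1 or WT 3. Slc13a2, a dicarboxylate transporter (440.5 ± 119 in WT and 83.7 ± 53.8 in KO, log2 change -2.62 ± 0.61), and Slc6a14, an amino acid transporter (2377 ± 551 in WT and 1055 ± 229 in KO, log2 change -1.17 ± 0.24), fell, and Kcne3, a subunit of the basolateral potassium channel, rose (481 ± 60.5 in WT and 1107 ± 103 in KO, log2 change 1.21 ± 0.13). Claudins and keratins split likewise, 8 lower and 4 higher of 23, and the falls numbered 3 to 5 without KO 1, WT 1, WT 2 or WT 3. Cldn2, the pore-forming claudin of crypts, was at 1696, 1368 and 1119.8 in WT and 4272, 3049 and 3777 in KO (log2 change 1.41 ± 0.33, limma adjusted p = 0.00943). It was higher in every KO library, and Cldn8 rose as well (30.2 ± 10.6 in WT and 59.7 ± 10.03 in KO, log2 change 1.0 ± 0.24).

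Ranked by the difference in mean count, the largest falls were in very abundant epithelial products. Sprr2a2, a small proline-rich protein of a family of near-identical copies whose reads may be shared, was at 279667, 275832 and 245151 in WT and 64003, 79772 and 56429 in KO (log2 change -2.01 ± 0.28, limma adjusted p = 0.00112). Lypd8, a secreted protein that keeps bacteria off the colon surface, was at 307573, 236184 and 292907 in WT and 42772, 112286 and 125141 in KO (log2 change -1.72 ± 0.37, limma adjusted p = 0.00698). Both lost most of their counts in every KO library. Ceacam1, an adhesion molecule (236295 ± 10295 in WT and 145265 ± 18707 in KO, log2 change -0.71 ± 0.13), and Emp1, a membrane protein (129536 ± 1477 in WT and 60798 ± 15758 in KO, log2 change -1.13 ± 0.17), also fell. The largest rise on this scale was in Ly6e, a membrane-anchored Ly6 protein (81601 ± 3161 in WT and 114980.0 ± 5404 in KO, log2 change 0.49 ± 0.08), followed by Hsp90ab1, given above. Eef2, a translation elongation factor (194328 ± 10962 in WT and 224985 ± 1811 in KO, log2 change 0.21 ± 0.07), and Flna, the actin crosslinker filamin A (47944 ± 4323 in WT and 73807 ± 19176 in KO, log2 change 0.60 ± 0.20), came next. Eef2 was not called without KO 1, KO 2, KO 3, WT 2 or WT 3, with a limma adjusted p of up to 0.148. Flna was not called without KO 1, KO 2, WT 1, WT 2 or WT 3, with a limma adjusted p of up to 0.18. Gpx2, the glutathione peroxidase of the gut epithelium, rose as well (30537 ± 2377 in WT and 52005 ± 6794 in KO, log2 change 0.76 ± 0.09). Ccn2, a matricellular YAP target, rose too (27027 ± 3047 in WT and 46202 ± 12039 in KO, log2 change 0.75 ± 0.18) but was not called without WT 3, with a limma adjusted p of up to 0.0545.

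**Figure D3:**
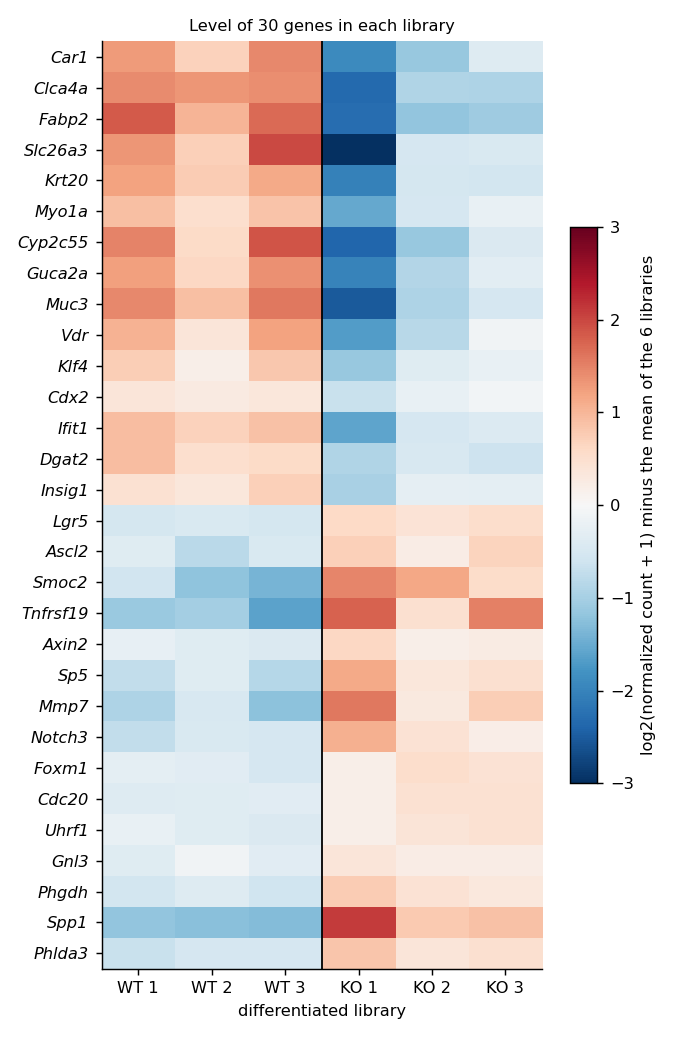
Log2(normalized count + 1) of 30 genes in the 6 differentiated libraries, each gene centred on the mean of the 6 libraries (colour, in log2 units). The genes were picked by their direction, the upper 15 lower in all 3 KO libraries and the lower 15 higher, so this split was fixed by the choice. Genes that overlap between the groups, such as Muc2, Chga and Mki67, are not shown. KO 1 has the deepest colour for most genes except Foxm1, Cdc20 and Uhrf1.

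Other lists of xenobiotic metabolism held more falls than rises. Of 8 tested glucuronosyltransferases 6 fell and none rose (median -1.52), Ugt1a6a of the AhR targets being 1 of the 6. Ugt1a1, which conjugates bilirubin, was at 3985, 2953 and 4397 in WT and 356, 1087 and 1453 in KO (log2 change -2.17 ± 0.50, limma adjusted p = 0.00924). Ugt1a7c was at 3827, 3451 and 4565 in WT and 545, 996 and 1334 in KO (log2 change -2.13 ± 0.34, limma adjusted p = 0.00204). Neither overlapped between the groups, but the Ugt1a genes have 3′ exons in common, and how reads in them were divided is uncertain. Cytochrome P450 genes of families 2 to 4 were lower in 9 of 17 and higher in none (median -1.17), with 5 without KO 1, WT 1 or WT 3. Cyp2c55, an oxidase of arachidonic acid in the colon, was at 7860.0, 4153 and 10392 in WT and 541, 1267 and 2092 in KO (log2 change -2.63 ± 0.57, limma adjusted p = 0.00706), lowest in KO 1. Cyp4f14 fell too (9297 ± 2775 in WT and 2646 ± 1362 in KO, log2 change -1.92 ± 0.39). Carboxylesterases and sulfotransferases fell in 7 and rose in 2 of 14 (median -1.28), the falls numbering 4 without KO 1, WT 1 or WT 3. Papss2, which makes the sulfate donor, is an example (10420.2 ± 1594 in WT and 2987 ± 967 in KO, log2 change -1.85 ± 0.21). Of 16 efflux and uptake transporters 5 fell and 1 rose, with 9 without KO 3 and 8 without WT stem 1 for the falls. The 2 mouse genes for P-glycoprotein moved in opposite directions. Abcb1a was at 18522, 13986 and 20924 in WT and 5049, 7995 and 8857 in KO (log2 change -1.31 ± 0.21, limma adjusted p = 0.0018). Abcb1b was at 215, 253 and 263 in WT and 857, 596 and 583 in KO (log2 change 1.45 ± 0.28, limma adjusted p = 0.00437). Abcg2, the breast cancer resistance protein, fell (565 ± 82.6 in WT and 177 ± 80.6 in KO, log2 change -1.77 ± 0.29).

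Glutathione S-transferases moved both ways, with 4 higher and 7 lower of 21 and a median of 0.08. Mgst1 rose (1460.3 ± 179.6 in WT and 3008 ± 396 in KO, log2 change 1.04 ± 0.12), and so did Gstm2 (265 ± 12.3 in WT and 527 ± 109.8 in KO, log2 change 0.97 ± 0.22). Genes of the NRF2 antioxidant response fell in 9 and rose in 1 of 20 (median -0.24), the rise being Gpx2. Srxn1, sulfiredoxin, fell (8611 ± 200.1 in WT and 4519 ± 798 in KO, log2 change -0.95 ± 0.11), and so did Fth1, the ferritin heavy chain (37153 ± 1597 in WT and 25524 ± 2885 in KO, log2 change -0.55 ± 0.09), and Gclm, of glutathione synthesis (6365 ± 496 in WT and 4594 ± 383 in KO, log2 change -0.47 ± 0.11).

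Secretory lineages changed less evenly than colonocytes. Of 28 goblet and deep crypt secretory genes 6 fell and 2 rose (median -0.37). The falls numbered 2 without WT 1 or WT 3, and the rises 1 without KO 1, KO 3, WT 1 or WT 3. Muc2, the main secreted mucin, was at 975, 619 and 1052 in WT and 217, 629.8 and 586 in KO and was not called (log2 change -0.99 ± 0.46, limma adjusted p = 0.124). KO 2 was within the WT range. Guca2a, guanylin, which also serves as a colonocyte marker, fell (6169 ± 1578 in WT and 1530.3 ± 806 in KO, log2 change -2.14 ± 0.42). Its fall is therefore not particular to secretory cells. Sytl2, of vesicle transport, fell as well (2117 ± 49.1 in WT and 813 ± 163 in KO, log2 change -1.40 ± 0.32). Of 10 enteroendocrine genes 2 fell, Sct, secretin, and Cpe, a peptidase of hormone processing. These calls numbered 1 without KO 1 or KO 2 and 0 without KO 3, WT 1 or WT 3. Chga, chromogranin A, was at 150.3, 89.6 and 116 in WT and 32.8, 69.5 and 104 in KO, with overlap, and was not called. Of 17 listed tuft cell genes 8 were tested, of which 3 rose and none fell (median 0.42). Pou2f3, Gnat3 and Rgs13 were among those below the filter. Ptgs1, a cyclooxygenase, was at 35.1, 14.3 and 13.6 in WT and 165, 75.9 and 109 in KO (log2 change 2.48 ± 0.54, limma adjusted p = 0.00755), and Cd24a rose (6274 ± 611 in WT and 12324 ± 1964 in KO, log2 change 0.97 ± 0.20). Dclk1, the usual tuft marker, was at 35.9, 16.7 and 20.4 in WT and 36.6, 35.3 and 31.4 in KO and was not called. Among 7 membrane-bound mucins Muc3 fell (13484 ± 3112 in WT and 2522 ± 1453 in KO, log2 change -2.61 ± 0.61) and Muc20 rose (139 ± 21.9 in WT and 449 ± 82.2 in KO, log2 change 1.68 ± 0.22).

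Transcription factors of intestinal identity were lower in 11 and higher in 2 of 23 (median -0.53), and the falls numbered 7 without KO 1 or WT 1. The rises numbered 1 with any of the 6 libraries left out. Foxd2, a forkhead factor, changed most, at 683, 596 and 652 in WT and 31.2, 97.3 and 77 in KO (log2 change -3.36 ± 0.37, limma adjusted p = 0.000288). Cdx2, the homeobox factor that specifies intestine, was at 18231, 17101 and 17871 in WT and 8857, 12141 and 13236 in KO (log2 change -0.66 ± 0.16, limma adjusted p = 0.0106). Its relative Cdx1 was at 5796, 4705 and 5663 in WT and 1783, 3031 and 3360.2 in KO (log2 change -1.03 ± 0.22, limma adjusted p = 0.00725). For all 3 genes every KO library was below every WT library. Nuclear receptor and retinoid genes fell in 9 and rose in 1 of 30 (median -0.41), the falls numbering 2 to 4 without KO 1, WT 1 or WT 3. Vdr, the vitamin D receptor, fell (2946 ± 843 in WT and 943 ± 482 in KO, log2 change -1.73 ± 0.34), and Stra6, a retinol transporter, rose (1567 ± 287 in WT and 5193 ± 2365 in KO, log2 change 1.65 ± 0.39). Of hedgehog and BMP genes 4 rose and 2 fell of 17, with 2 without KO 1 or WT 1 and 1 without WT 3 for the rises and 1 without KO 1, KO 2, KO 3, WT 1 or WT 3 for the falls. The colonocyte ligand Ihh fell (1683 ± 360.5 in WT and 570.4 ± 246 in KO, log2 change -1.64 ± 0.37) and the ligand Bmp4 rose (117 ± 19.1 in WT and 407 ± 22.5 in KO, log2 change 1.80 ± 0.16).

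Stem cell and Wnt genes were higher in the KO organoids. Of 22 tested intestinal stem cell genes 10 rose and 2 fell (median 0.42), with 1 without KO 1, WT 1, WT 2 or WT 3 for the falls. Of 20 Wnt target and feedback genes 11 rose and 1 fell (median 0.52), beside 14.4% of all genes. Lgr5, the R-spondin receptor that marks crypt base stem cells, was at 1832, 1939.7 and 1833 in WT and 3994, 3544 and 3825 in KO (log2 change 1.02 ± 0.32, limma adjusted p = 0.0342). The 3 KO libraries were close to each other and far above WT. Lgr5 was not called without KO 1, KO 2, KO 3, WT 1, WT 2 or WT 3, with a limma adjusted p of up to 0.0992. In the stem cell libraries, which share the estimate of spread, its SD was 2546 around a mean of 5344 in WT. Ascl2, the transcription factor of stem cells, was at 80.1, 58.5 and 75 in WT and 169.9, 119.7 and 164 in KO (log2 change 1.07 ± 0.18, limma adjusted p = 0.00236). Smoc2 (62.7 ± 20.03 in WT and 276 ± 84.5 in KO, log2 change 2.12 ± 0.36) and Tnfrsf19, a receptor that binds Lgr5 (9.16 ± 2.07 in WT and 59.6 ± 24.8 in KO, log2 change 2.5 ± 0.30), rose too. Olfm4, a marker of the small intestinal stem cell, had 1 read in WT and 2 in KO and was not tested.

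Among Wnt targets, Axin2, which limits beta-catenin, was at 2273, 2071 and 1972 in WT and 4125, 3047 and 3176 in KO (log2 change 0.70 ± 0.13, limma adjusted p = 0.00413). Sp5 was at 315, 409.7 and 293 in WT and 1168, 671 and 732 in KO (log2 change 1.31 ± 0.22, limma adjusted p = 0.0022). Mmp7, matrilysin, was at 2182, 2972 and 1760.3 in WT and 12309.5, 5055 and 6915 in KO (log2 change 1.75 ± 0.33, limma adjusted p = 0.00395). None of the 3 overlapped between groups, and KO 1 was the highest in each. Lef1, a nuclear partner of beta-catenin, rose from a few counts (4.02 ± 1.86 in WT and 19.6 ± 5.92 in KO, log2 change 2.06 ± 0.49). The mean log2 level of the 20 Wnt genes against WT was 0.75, 0.44 and 0.52 in KO 1, KO 2 and KO 3. With Wnt-3A it was 0.48, 0.80 and 0.58 in WT and 0.76, 0.64 and 0.72 in KO. For this list the KO libraries without Wnt-3A overlapped the range of the stem cell libraries. Notch pathway genes rose in 4 of 14 and fell in none (median 0.30, with 2 without KO 1 or WT 3). Notch3 (1314 ± 139 in WT and 2956 ± 963 in KO, log2 change 1.13 ± 0.20) and the ligand Jag2 (1705 ± 75.3 in WT and 2649 ± 243 in KO, log2 change 0.63 ± 0.11) kept their calls in every fit. Of the EGF receptor list 3 rose and 3 fell of 19, near the 14.4% higher and 14.7% lower over all genes. The falls numbered 1 without WT 1 or WT 3 and 5 without WT stem 1. The ETS factors Etv5 (393 ± 14.3 in WT and 671 ± 68.5 in KO, log2 change 0.77 ± 0.09) and Etv4 (1165 ± 53.6 in WT and 1799 ± 188 in KO, log2 change 0.62 ± 0.09) rose, and the receptor Erbb2 fell (23646 ± 1547 in WT and 15969.5 ± 2553 in KO, log2 change -0.58 ± 0.10).

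Replication and mitosis genes were also higher, each called rise by less than 2-fold. Of 38 DNA replication genes 18 rose and 3 fell (median 0.36), with 11 without KO 2 and 9 without WT 3 for the rises. Of 30 mitosis genes 21 rose and 1 fell (median 0.51), with 10 without KO 2 or WT 1 and 11 without KO 3 or WT 3. Foxm1, the factor that drives mitotic genes, was at 239.5, 229 and 204 in WT and 331, 421 and 397 in KO (log2 change 0.76 ± 0.12, limma adjusted p = 0.00171). Cdc20, an activator of the anaphase-promoting complex, was at 375, 379.8 and 384 in WT and 546, 663 and 670.1 in KO (log2 change 0.72 ± 0.14, limma adjusted p = 0.00434). The KO libraries did not overlap WT, and here KO 1 was the closest to WT. Uhrf1, which maintains DNA methylation, rose (660.4 ± 45.1 in WT and 1062 ± 103 in KO, log2 change 0.68 ± 0.13), as did Pola1, a DNA polymerase subunit (259 ± 28 in WT and 385 ± 14.6 in KO, log2 change 0.57 ± 0.09). Orc1, the origin licensing factor, fell instead (399 ± 45.3 in WT and 124 ± 22 in KO, log2 change -1.69 ± 0.19), as did Dut, a dUTPase (1429 ± 64.8 in WT and 918 ± 178 in KO, log2 change -0.66 ± 0.13). Mki67 was at 884, 868 and 984 in WT and 737, 1279.8 and 1327 in KO and was not called. KO 1 was below all WT libraries and KO 2 and KO 3 were above them. The mean log2 level of the mitosis genes was 0.13, 0.65 and 0.66 in KO 1, KO 2 and KO 3 relative to WT, and 4.11, 3.98 and 3.88 in the WT libraries with Wnt-3A. The KO organoids were far nearer to the differentiated WT than to the stem cell level. Among 26 G1 cyclins and Cdk inhibitors 5 rose and 3 fell. The rises numbered 3 without WT 3 and the falls 1 without KO 1, WT 1, WT 2 or WT 3 and 6 without WT stem 1. Cdk4 rose (7119 ± 524 in WT and 11232 ± 1919.9 in KO, log2 change 0.65 ± 0.13), Cdkn2a rose (4769.6 ± 140.4 in WT and 7908 ± 1941 in KO, log2 change 0.70 ± 0.18) and the inhibitor Cdkn1c fell (1326 ± 75 in WT and 606 ± 86.6 in KO, log2 change -1.14 ± 0.12).

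Ribosome biogenesis genes rose in 21 of 32 and fell in none (median 0.35). The changes were small and the count was 7 to 12 without KO 1, KO 3, WT 1, WT 2 or WT 3. Gnl3, nucleostemin, was at 626, 751 and 638 in WT and 1043, 951 and 948 in KO (log2 change 0.55 ± 0.13, limma adjusted p = 0.0102), and Gar1, of small nucleolar ribonucleoproteins, rose (693 ± 61.2 in WT and 1009 ± 81.8 in KO, log2 change 0.54 ± 0.11). Beside 14.4% higher over all genes, 6 of 31 amino acid and unfolded protein stress genes rose and none fell (median 0.14). They included the serine synthesis enzymes Phgdh (1108 ± 85.9 in WT and 2264 ± 377 in KO, log2 change 1.02 ± 0.10) and Psat1 (1259 ± 105 in WT and 1823 ± 152 in KO, log2 change 0.53 ± 0.10). The mitochondrial Shmt2 (1853 ± 94.4 in WT and 2761 ± 151 in KO, log2 change 0.58 ± 0.08) and the amino acid transporter Slc7a5 (798 ± 69.9 in WT and 1297 ± 33 in KO, log2 change 0.70 ± 0.12) were among them too.

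Lipid genes fell. Of 36 genes of fatty acid oxidation and lipid handling 21 fell and 1 rose (median -0.48), with 13 without KO 1 and 12 without WT 3 for the falls. Dgat2, which makes triglyceride, was at 9503, 7152 and 7509 in WT and 2694, 3605 and 3269.5 in KO (log2 change -1.34 ± 0.13, limma adjusted p = 0.000122). Cholesterol synthesis genes were lower in 17 of 27 and higher in none (median -0.47), with 10 without WT 1 and 5 without WT 3. Insig1, the sterol sensor's retention factor, fell (10416 ± 1396 in WT and 5242 ± 1329 in KO, log2 change -1.02 ± 0.17), as did Msmo1 (16462 ± 2286 in WT and 9470.2 ± 2946 in KO, log2 change -0.84 ± 0.19) and Hmgcs1 (27998 ± 3059.9 in WT and 16615 ± 4459 in KO, log2 change -0.79 ± 0.17), enzymes of the pathway. For respiration and glycolysis few genes passed. Of 46 nuclear oxidative phosphorylation genes 9 fell and none rose (median -0.12), beside 14.7% lower over all genes. The falls numbered 2 without KO 1 or WT 3 and 3 without WT 1. Sdha, of complex II, was called in every fit (19008 ± 595 in WT and 15153 ± 1346 in KO, log2 change -0.33 ± 0.06). Of 29 glycolysis and hypoxia genes 2 fell by limma (median -0.44), and the count was 0 without KO 1, KO 2, WT 1, WT 2 or WT 3 and 20 without WT stem 1. All 29 had a negative log2 change. Their mean log2 level against WT was -0.85, -0.25 and -0.31 in KO 1, KO 2 and KO 3. In WT 1, WT 2 and WT 3 it was 0.01, -0.06 and 0.05. None of the 15 mitochondrially encoded genes was called.

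Interferon response genes were lower as a group. Of 51 tested 29 fell and 1 rose (median -0.42), and leaving out any library of the comparison left 22 to 28 falls. Ifit1, an antiviral RNA-binding protein, was at 4908, 4148 and 4759 in WT and 859, 1833 and 1949.7 in KO (log2 change -1.66 ± 0.27, limma adjusted p = 0.00192). Its relative Ifit2 was at 1147, 585 and 1052 in WT and 117, 322 and 243 in KO (log2 change -2.08 ± 0.34, limma adjusted p = 0.00215), and Ifit3 was at 2399, 2053 and 2149 in WT and 444, 1025 and 922 in KO (log2 change -1.55 ± 0.32, limma adjusted p = 0.00621). In each gene the WT libraries were above every KO library and KO 1 was the lowest. MHC class I and antigen processing genes fell in 11 and rose in 1 of 27 (median -0.27). H2-Q2 (7249.6 ± 1101 in WT and 2674 ± 1098 in KO, log2 change -1.53 ± 0.30) and H2-Q10 (1949 ± 216 in WT and 718 ± 269 in KO, log2 change -1.52 ± 0.35) were among the largest falls. Copies of this group are so alike that reads may be shared among them. Of 7 MHC class II genes 2 rose and 1 fell, the fall being Ctss, cathepsin S (3701 ± 463 in WT and 1242 ± 564 in KO, log2 change -1.68 ± 0.34). The rises numbered 1 without KO 1 or WT 2 and 0 without KO 2, KO 3, WT 1 or WT 3.

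In the IL-18 and IL-1 pathway 7 of 19 genes fell and 1 rose (median -0.50). Il18, a cytokine of the epithelium, was at 2261, 1842 and 1944 in WT and 842, 952 and 1232 in KO (log2 change -1.01 ± 0.18, limma adjusted p = 0.00289). Nlrp6, an inflammasome sensor, fell (3971 ± 647 in WT and 1308 ± 614 in KO, log2 change -1.72 ± 0.41). The antimicrobial and mucosal defence list was balanced, 6 higher and 6 lower of 28, beside 14.4% and 14.7% over all genes. Its falls numbered 3 without KO 1, WT 1 or WT 3. Besides Cp and Sftpd, Cxcl1, a chemokine for neutrophils, was at 77.8, 35.8 and 20.4 in WT and 287, 319.7 and 151 in KO (log2 change 2.61 ± 0.59, limma adjusted p = 0.00901), higher in every KO library. Prostaglandin and phospholipase genes fell in 4 and rose in 2 of 16, the rises being Ptgs1 and Alox5, the 5-lipoxygenase (37.7 ± 15.5 in WT and 231 ± 92.2 in KO, log2 change 2.59 ± 0.44). The falls numbered 2 without KO 1 or WT 3.

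Genes of the fetal-like, regenerative and YAP lists moved both ways, 11 higher and 6 lower of 33 (median 0.18). The rises numbered 7 without KO 1 or WT 1 and 6 without WT 3 and the falls 3 without KO 3, WT 1 or WT 2. Spp1, osteopontin, was at 117, 112 and 109 in WT and 1159, 463 and 496 in KO (log2 change 2.5 ± 0.30, limma adjusted p = 0.000491). Cnn3, a calponin, was at 1261, 1449 and 1274 in WT and 8549, 4976 and 4689.6 in KO (log2 change 2.14 ± 0.19, limma adjusted p = 0.000102). In both KO 1 was the highest library. Gja1, connexin 43, rose (208 ± 46.3 in WT and 539 ± 162 in KO, log2 change 1.36 ± 0.31), and Anxa10, an annexin, fell (377 ± 74.2 in WT and 102 ± 11.8 in KO, log2 change -1.87 ± 0.36). Of 25 apoptosis and p53 target genes 13 rose and 2 fell (median 0.43), with 6 without KO 1 and 8 without WT 3 for the rises. Phlda3, a repressor of Akt (4169 ± 247 in WT and 9112 ± 1584 in KO, log2 change 1.12 ± 0.13), and Gtse1, a p53 regulator of dividing cells (1670.1 ± 203 in WT and 3380.1 ± 899.5 in KO, log2 change 0.99 ± 0.19), are examples. Basement membrane and integrin genes fell in 6 and rose in 2 of 25, and the falls numbered 3 without WT 3. The rises numbered 1 to 5 without KO 1, KO 3, WT 1, WT 2, WT 3 or WT stem 1. Plec, plectin, fell (46648 ± 2260.3 in WT and 29222 ± 311 in KO, log2 change -0.67 ± 0.11), as did Itga6, an integrin of hemidesmosomes (39012 ± 824 in WT and 26496 ± 2497 in KO, log2 change -0.56 ± 0.08), while Col4a5, a basement membrane collagen, rose (232 ± 16.2 in WT and 762 ± 205 in KO, log2 change 1.68 ± 0.23). Markers of nerve and glia were mostly below the filter, with 2 of 9 tested. Ret, the receptor of glial-derived growth factor, fell (829 ± 109.8 in WT and 334 ± 40.6 in KO, log2 change -1.31 ± 0.17).

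**Figure D4:**
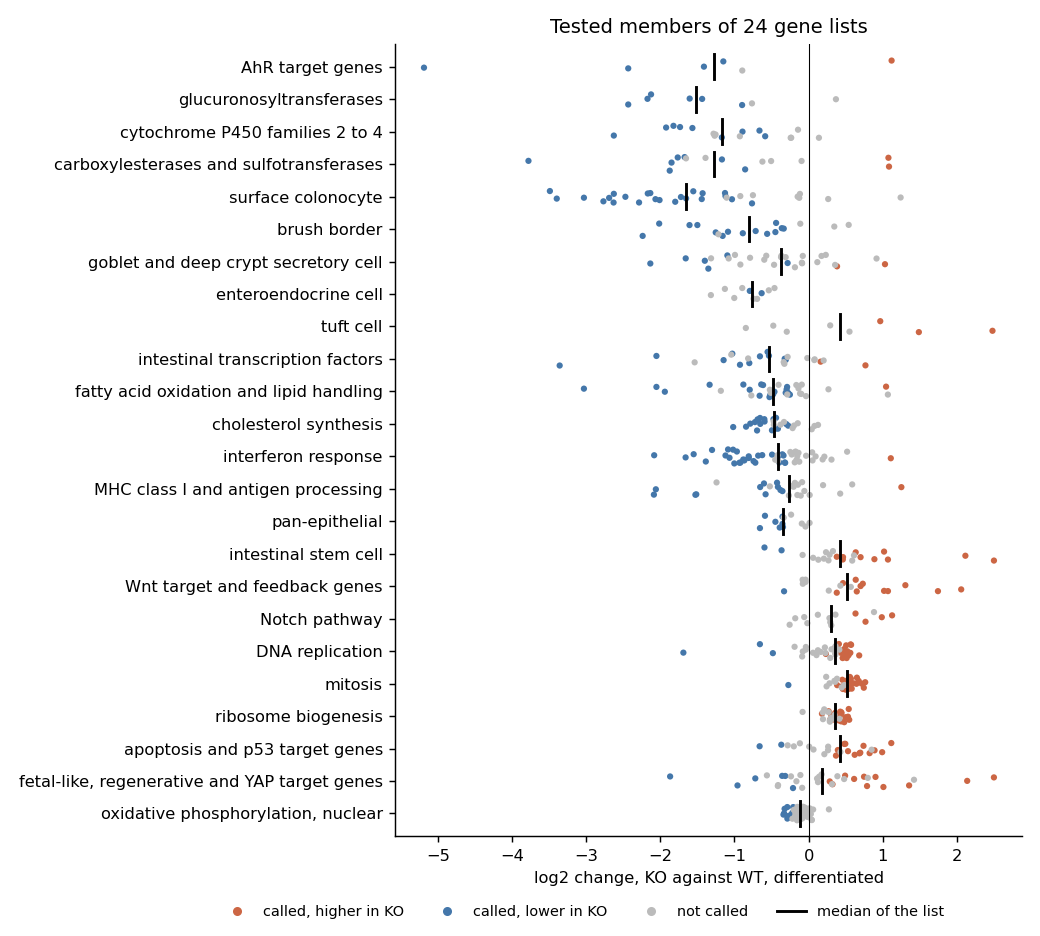
Log2 change of KO against WT after Wnt-3A withdrawal for the tested members of 24 gene lists, 1 point per gene (orange called higher, blue called lower, grey not called) with the list median as a bar. Surface colonocyte, glucuronosyltransferase and P450 genes lie mostly left of 0, with medians of -1.65, -1.52 and -1.17, and stem cell, Wnt, replication, mitosis and ribosome biogenesis genes lie mostly right of 0, with medians of 0.35 to 0.52.

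Whether the effect of genotype depended on Wnt-3A was tested as the difference between the KO effect without Wnt-3A and that in the stem cell condition. These 2 effects share no libraries. The difference was called for 1345 genes, or 9.53% of those tested, with 801 (5.67%) higher and 544 (3.85%) lower without Wnt-3A. In the stem cell condition itself 970 genes (6.87%) were called, 3.54% higher and 3.33% lower in KO. The difference was called for 1615 genes without WT stem 1, and for 373 to 869 without WT 1, WT 2, WT 3, KO 2 or 1 of the KO stem libraries. Of the genes called without Wnt-3A 11.7% were also called in the same direction in the stem cell condition, and they made up 49.3% of the calls there. Cyp1b1, Rec8, Capn11, Cd55b, Gpr37l1 and Wdfy1 were lower in KO in both conditions, and the difference was called for none of them. Of the 3561 genes called only without Wnt-3A, 978 had a called difference, and for the others a dependence on the condition was not shown.

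The effect on interferon genes differed between the conditions. In the stem cell condition 10 of the 51 were called higher in KO and none lower (median 0.35), beside 3.54% higher over all genes. The 10 became 0 to 6 without WT 1, WT 2, WT 3, KO 2, KO 3, WT stem 1, WT stem 2, KO stem 1 or KO stem 2. The difference was called lower for 27 and higher for none, with 16 without WT 3. The mean log2 level of the list, set to 0 at the WT without Wnt-3A, was -0.71, -0.58 and -0.45 in WT with Wnt-3A and -0.05, -0.14 and -0.41 in KO with Wnt-3A, against -0.73, -0.36 and -0.46 in KO without it. For Ifit1 in the stem cell condition its mean was 1152 in WT and 1854 in KO (difference -2.35 ± 0.38, limma adjusted p = 0.0104). This call was kept with each of the 12 libraries left out, as was that of Ifit3 (difference -2.34 ± 0.46, limma adjusted p = 0.0162).

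For replication and mitosis genes the difference went the opposite way. In the stem cell condition their medians were -0.31 and -0.28, with 5 of 38 and 1 of 30 genes called lower in KO and none higher, beside 3.33% lower over all genes. The 5 became 0 to 9 when each of the 12 libraries was left out in turn, and the 1 became 8 without KO 1. The difference was called higher for 21 replication genes and lower for 1. The 21 became 8 to 13 without WT 3, KO 2, KO stem 1, KO stem 2 or KO stem 3. For mitosis genes it was called higher for 15 and lower for none, and the 15 became 5 to 26 without WT 1, WT 3, KO 1, KO 2, KO stem 1 or KO stem 2. For Pola1 (difference 0.84 ± 0.13, limma adjusted p = 0.00974), Uhrf1 (difference 1.09 ± 0.19, limma adjusted p = 0.012), Foxm1 (difference 0.99 ± 0.17, limma adjusted p = 0.0114) and Bub1, a spindle checkpoint kinase (difference 0.90 ± 0.17, limma adjusted p = 0.0155), it was called with each of the 12 libraries left out in turn. Ribosome biogenesis genes had 15 called higher and none lower, and the 15 became 4 to 9 without WT 1, WT 2, WT 3, KO 1, KO 2, KO 3, KO stem 1, KO stem 2 or KO stem 3. Ascl2 was lower in KO with Wnt-3A and higher without it (difference 1.78 ± 0.26, limma adjusted p = 0.00925). With Wnt-3A its mean was 975 in WT and 591 in KO. Phgdh (difference 1.10 ± 0.14, limma adjusted p = 0.00843) and Etv5 (difference 0.90 ± 0.12, limma adjusted p = 0.0091) rose in KO without Wnt-3A and were not called with it. Among the genes that fell, Dgat2 (difference -1.31 ± 0.18, limma adjusted p = 0.00871), Srxn1 (difference -0.94 ± 0.16, limma adjusted p = 0.0116) and Fth1 (difference -0.75 ± 0.13, limma adjusted p = 0.0114) did so without Wnt-3A and were not called with it. Of the surface colonocyte genes 3 of 31 had a called difference, against 12 called lower in KO with Wnt-3A as well. The 12 became 6 without KO stem 1 or KO stem 2. Fabp2 was among the 3 (difference -3.62 ± 0.53, limma adjusted p = 0.00974), a gene with few counts in both stem cell groups.

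**Figure D5:**
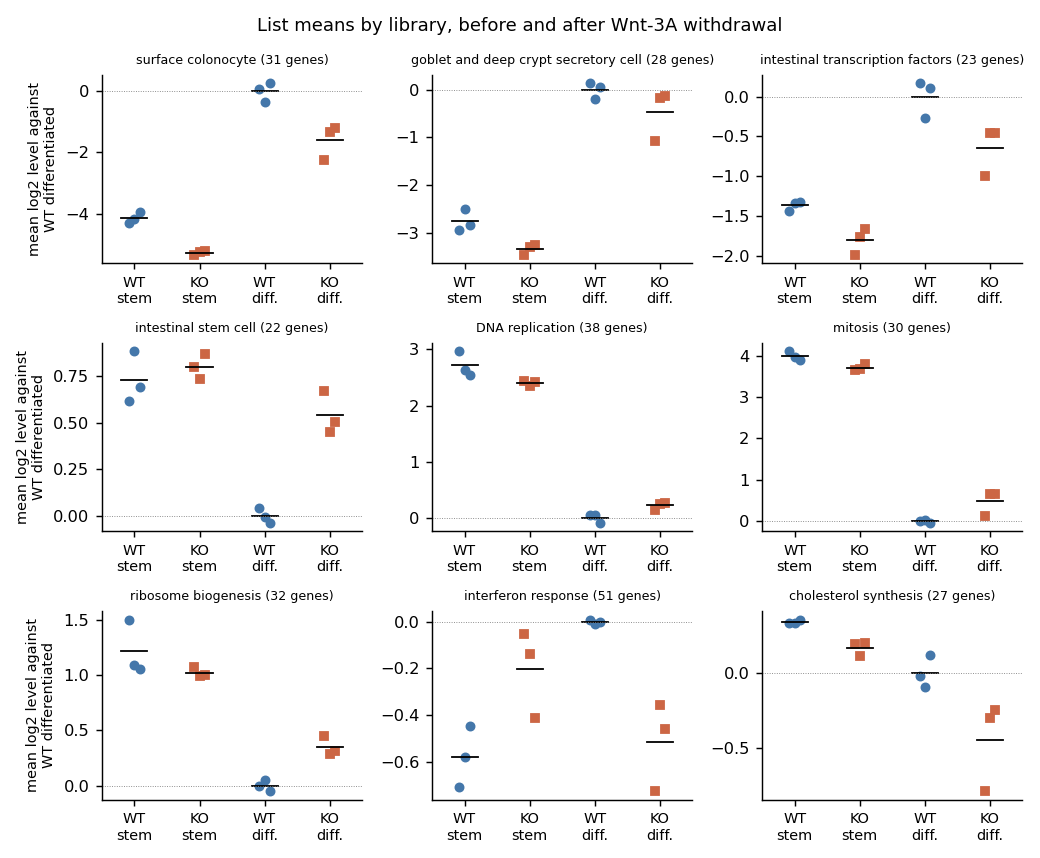
Mean log2(normalized count + 1) over the tested members of 9 gene lists in each of the 12 libraries, relative to the mean of the 3 differentiated WT libraries (dotted line), with WT as circles, KO as squares and group means as bars. KO lies below WT without Wnt-3A for colonocyte, transcription factor, interferon and cholesterol genes. It lies above WT for stem cell, replication, mitosis and ribosome biogenesis genes. In the stem cell condition the order of the group means is reversed for the interferon, replication, mitosis and ribosome biogenesis lists.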

How the data were processed

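The libraries were made from total RNA of 3 organoid samples per genotype and condition. Per the labels and the submitters' processing notes, reads were handled with Bowtie2 and RSEM (1.2.11) against GRCm38 and scaled with DESeq2 (1.18.1). The deposited table holds a signal, the gene count divided by a size factor per library, and the authors' processing set this scale. Every value above 0 was a whole multiple (within 0.05 reads) of the worth of 1 read, so that reads could be recovered. Whether reads were counted by strand is not given in the sources used here. Log2(normalized count + 1) was fitted with limma (3.58.1, R 4.3.3) by empirical Bayes with a trend, with the 4 groups of all 12 libraries as terms, and p-values were adjusted by Benjamini-Hochberg over 14115 genes. A reading by edgeR (4.0.16) with TMM and by DESeq2 (1.42.0) was made on recovered reads. Depth is given above, and with 3 libraries per group the spread between libraries, not counting error, limits most genes.

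Named genes were the 12 largest rises and falls, if called, without overlap and averaging 50 or more in a group, the 6 largest differences of means each way, up to 4 called members of each list with the largest change, the 6 largest differences between conditions each way, and a fixed panel. Genes singled out beyond them are marked. A few genes named by this rule are not reported here. The genes tested and the lists were chosen with earlier results of these data known. Gene names and positions came from the GENCODE annotation, which matched 99.1% of the gene identifiers. RefSeq promoter windows (GRCm38.p6) were available for fewer genes, 10465 of the 14115 tested. The fit was tested on simulated data. Alternatives were other pseudocounts, filters, scalings, tools, a robust spread, a replicate block and fits with a library left out.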

Additional observations from a re-analysis of the deposited data

Results flagged for a closer look

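The effect of KO differed between the conditions for 1345 genes by the limma test of the difference, 3963 having an unadjusted p under 0.05. The largest differences are given here on the log2 scale, the effect without Wnt-3A minus that with it, and the mean normalized counts of the groups follow. Groups of 3 libraries are too small for a test of single libraries that lie apart.

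Of those with a positive difference, where the KO effect was more positive or less negative without Wnt-3A, Mcam, an adhesion molecule, differed by 2.26 ± 0.39 (without Wnt-3A 146 in WT and 661 in KO, with Wnt-3A 181 in WT and 158 in KO). Zbtb10, a zinc finger protein, differed by 2.21 ± 0.33 (without Wnt-3A 186 in WT and 272 in KO, with Wnt-3A 134 in WT and 39.6 in KO), and Nes by 2.02 ± 0.31 (without Wnt-3A 303 in WT and 2094 in KO, with Wnt-3A 292 in WT and 474 in KO). These calls were kept with each of the 12 libraries left out. Chst11, a chondroitin sulfotransferase, differed by 2.07 (without Wnt-3A 321 in WT and 155 in KO, with Wnt-3A 345 in WT and 38.9 in KO), a call lost without WT 3, KO 2 or KO stem 1, with an adjusted p of up to 0.0601. Rgs5 differed by 2.23 (without Wnt-3A 9.53 in WT and 87.9 in KO, with Wnt-3A 2.42 in WT and 4.84 in KO), lost in 10 of the 12 fits, with an adjusted p of up to 0.0992, and kept only without KO 3 or WT stem 1. Ugt1a7c, lower in KO in both conditions, differed by 2.01 (without Wnt-3A 3948 in WT and 958 in KO, with Wnt-3A 3123 in WT and 188 in KO), lost in 8 of the 12 fits, with an adjusted p of up to 0.072, and kept only without KO 1, WT stem 1, WT stem 3 or KO stem 3.

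In the other direction, Fabp2 differed by -3.62 ± 0.53 (without Wnt-3A 659 in WT and 82.6 in KO, with Wnt-3A 2.82 in WT and 4.44 in KO). Usp17ld, a deubiquitinase of a family of close copies whose reads may be shared, differed by -3.15 ± 0.54 (without Wnt-3A 111 in WT and 21.1 in KO, with Wnt-3A 21.3 in WT and 34.1 in KO). Both calls were kept in all 12 fits. Fabp2 and, below, Ces1d, Ryr2 and Slc3a1 had few counts in both genotypes with Wnt-3A. A fall in KO could hardly have shown there, so for these genes the difference mostly repeats the effect without Wnt-3A. Ptpn5, a tyrosine phosphatase, differed by -4.21 (without Wnt-3A 276 in WT and 58.7 in KO, with Wnt-3A 11.9 in WT and 34.6 in KO), a call lost without WT 1, WT 3, KO 1, KO stem 1, KO stem 2 or KO stem 3, with an adjusted p of up to 0.0749. Ces1d differed by -3.60 (without Wnt-3A 138 in WT and 10.1 in KO, with Wnt-3A 0.754 in WT and 0.519 in KO), lost without WT 2, WT 3 or KO stem 1, with an adjusted p of up to 0.0694. Ryr2, a calcium release channel, differed by -3.23 (without Wnt-3A 139 in WT and 24.3 in KO, with Wnt-3A 2.05 in WT and 3.97 in KO), lost without WT 1, WT 3 or KO stem 2, with an adjusted p of up to 0.0636. Slc3a1, an amino acid transporter subunit, differed by -3.01 (without Wnt-3A 612 in WT and 125 in KO, with Wnt-3A 1.67 in WT and 2.83 in KO), lost in 9 of the 12 fits, with an adjusted p of up to 0.111, and kept only without WT 2, KO 1 or KO 3.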

How the results depend on the processing

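For KO against WT without Wnt-3A, 3395 to 5019 genes were called with other pseudocounts, filters, scalings and tools, a robust spread, the 6 libraries alone or a block, against 4099. Asking for a change of at least 2-fold left 889. With a library of the comparison or WT stem 1 left out the count was 2261 to 5680, highest without WT stem 1. Fits without another stem cell library are not part of this range. For the difference between the conditions, 1345 genes, the count was 750 with no filter, where more genes were tested, 2443 by DESeq2, for which the cause was not tested, and 373 to 1615 with a library left out. The change of Ahr was 0.55 to 0.70 in all fits. No named gene reversed. Of 196 called named genes up to 23 lost the call under another setting and 12 to 53 with a library of the comparison left out. The median log2 change of all genes stayed below 0.1 in size under every scaling. List counts moved more. With quantile normalization the falls numbered 2 in place of 9 for nuclear oxidative phosphorylation and 5 in place of 9 for NRF2 genes. They numbered 11 in place of 17 for cholesterol synthesis, 5 in place of 8 for claudins and keratins and 9 in place of 6 for antimicrobial genes. Surface colonocyte and interferon falls stayed at 23 and 29.

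Replicate numbers did not pair the genotypes, since same-numbered WT and KO libraries without Wnt-3A had correlations of -0.01, -0.05 and 0.12 in their deviations from the group means. Within a genotype, across conditions, they were 0.10, 0.05 and 0.15 in WT and 0.33, 0.21 and 0.28 in KO, and every library correlated best with its own number. The main fit, also for the difference between conditions, treated the 12 libraries as independent and did not use this pairing. With the replicate number as a block 5019 genes were called, and 2206 for the difference between conditions. That block also tied WT and KO libraries of the same number, and a block within each genotype was not fitted.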

Other observations

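Predicted genes and pseudogenes were left aside above, and some of them changed strongly. They were singled out after their values were seen. Gm16867, annotated as protein coding at chr14:69363504-69503362 (GRCm38), was at 0, 2.39 and 0 in WT and 1188, 1660.5 and 1589 in KO without Wnt-3A (log2 change 9.93 ± 0.45, limma adjusted p = 4.67e-07) and at 0, 1.11 and 0 in WT and 1265, 1273 and 1347 in KO with it. Gm27177, an antisense transcript nearby at chr14:69582164-69683286, was at 0.763, 1.19 and 0 in WT and 97.5, 146 and 174 in KO without Wnt-3A and at 4.89, 0 and 1.15 in WT and 295, 330.2 and 222 in KO with it. Both were near 0 in every WT library and present in every KO library of both conditions, and neither lies on the chromosome of Ahr. Gm6472, a transcribed pseudogene on chromosome X, was at 1886, 2556 and 1912 in WT and 14589, 16255 and 16247 in KO without Wnt-3A and at 3792, 3776 and 4371 in WT and 20468, 24451 and 23358 in KO with it. Mdm4-ps, a pseudogene also on chromosome X, went the other way, at 52.6, 70.5 and 86.3 in WT and 0.762, 0 and 0 in KO without Wnt-3A and 60.3, 49.9 and 68.1 in WT and 1.08, 0 and 0 in KO with it. Copies of these sequences elsewhere in the genome may share their reads.

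Chit1, chitotriosidase, was singled out after its values were seen and did not reach the filter without Wnt-3A. It had 0 reads over the 3 WT libraries, which allows up to 3 reads in each, and 34 reads over the 3 KO libraries. With Wnt-3A its normalized count was 0, 1.11 and 0 in WT and 73.3, 88.1 and 57 in KO.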
